A study of Mus musculus with 6 samples.

Results

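The genes described here carry glucose carbon from the cell surface to the end of the tricarboxylic acid (TCA) cycle, and 42 of them were chosen by name. They were taken from a table of 24054 genes by their symbol, and all 42 were found. They fall into 16 genes of glycolysis, 4 genes of lactate handling, 9 genes of pyruvate entry and the pyruvate dehydrogenase (PDH) complex, and 13 genes of the TCA cycle. Polyadenylated RNA of the dissected substantia nigra (SN) was sequenced from 3 MitoParks and 3 littermate controls, at an age given as 16 to 17 weeks. MitoParks were Dat +/Cre and Tfam LoxP/LoxP, so that Tfam, the gene of mitochondrial transcription factor A, was deleted in cells that express the dopamine transporter. Littermate controls were Dat +/+ and Tfam +/LoxP, so they lacked Cre and carried 1 floxed copy of Tfam. The MitoParks also had Cre at 1 copy of the dopamine transporter gene, which the controls did not. All mice had a C57BL/6 background and none was treated. The deletion was limited to dopaminergic cells, while the RNA came from the whole dissected SN with its other neurons and glia. In such bulk tissue, fewer cells of a type and less RNA per cell cannot be told apart.

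In glycolysis, hexokinase traps glucose in the cell, and a series of cytosolic enzymes then splits it to pyruvate with a small yield of ATP. Pyruvate is either reduced to lactate or carried into mitochondria, where PDH turns it to acetyl-CoA for the TCA cycle. That cycle makes the NADH which feeds the respiratory chain, and the chain in turn needs subunits encoded by the mitochondrial DNA that Tfam maintains. In brain, neurons are known to rely strongly on oxidative metabolism, while astrocytes are known to run more glycolysis and to release lactate.

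Each mouse had between 8140777 and 10528602 expected counts in all. Levels are given as CPM, read counts scaled to a common library size with TMM factors, and 3 counts then correspond to between 0.285 and 0.366 CPM. Tfam had 40.3, 44.4 and 45.5 CPM in controls 1, 2 and 3 against 32.7, 33.1 and 33.2 CPM in the MitoParks (edgeR unadjusted p = 0.00565), and each MitoPark was below each control. The tissue held transcripts of dopaminergic neurons in all mice, with Th between 39.0 and 159 CPM, although Pitx3 had no count in MitoPark 1. Littermate control 3 stood apart, with Slc6a3, the dopamine transporter gene, at 383 CPM against 65.3 to 72.6 CPM in the other controls and 13.3 to 51.1 CPM in MitoParks. Fits without this mouse are given beside the genes of lactate handling, Mpc1 and Pdk2, and the ranges over the fits without 1 mouse are given for all 42 genes after the results.

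None of the 42 genes differed between MitoParks and littermate controls past the threshold. All 42 genes passed the filter of a mean above 1 CPM in at least 1 group, and 0 of the 42 reached the threshold of an unadjusted p under 0.05 with edgeR's quasi-likelihood fit, where 1.11% of the 14568 tested genes did. DESeq2's Wald test, limma-voom and edgeR's exact test called 0 of the 42 as well. At the edgeR share of 1.11%, a list of 42 genes would hold few or none, so this 0 does not set these genes apart. With the further requirement of a fold change above 1.5, 0.577% of all tested genes were called (0.378% higher and 0.199% lower in MitoParks) and again 0 of the 42. The smallest p among them was 0.0611, for Hk2. The adjusted p was 0.999 for each of the 42 genes (Benjamini-Hochberg adjustment over all tested genes), and this was also the smallest adjusted p among all tested genes. The groups overlapped for each of the 42 genes, while 4.71% of all tested genes had groups that did not. With 3 against 3 mice, 0.1 is the smallest p that an exact permutation test allows.

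For most of these genes the data also bounded how large a difference could be in RNA of the whole dissected SN. These bounds do not apply to the dopaminergic cells alone, in which Tfam was deleted. The 95% interval of the fold change lay wholly within 1.5-fold in either direction for 38 of the 42 genes, against 66.5% of all tested genes. The exceptions were Hk2, Eno1, Slc16a7 and Mpc1. Intervals tend to be narrower for genes with more counts, and genes of matching level were not compared. The fitted log2 fold change was smaller than 0.1 in size for 34 of the 42 genes and smaller than 0.2 for 40. Values below 0 were found for 33 of the 42 genes, or 78.6%, against 51.4% of all tested genes, and 9 were above 0. The median log2 fold change was -0.05 over the 42 genes and -0.0047 over all tested genes. This split depended on the scaling and on single mice: it was 27 below and 15 above 0 with total counts in place of TMM, 25 and 17 without littermate control 3, 23 and 19 without MitoPark 3, and 36 and 6 without littermate control 1. As no single gene passed the test, the values below are levels with their errors and are not calls.

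**Figure D1:**
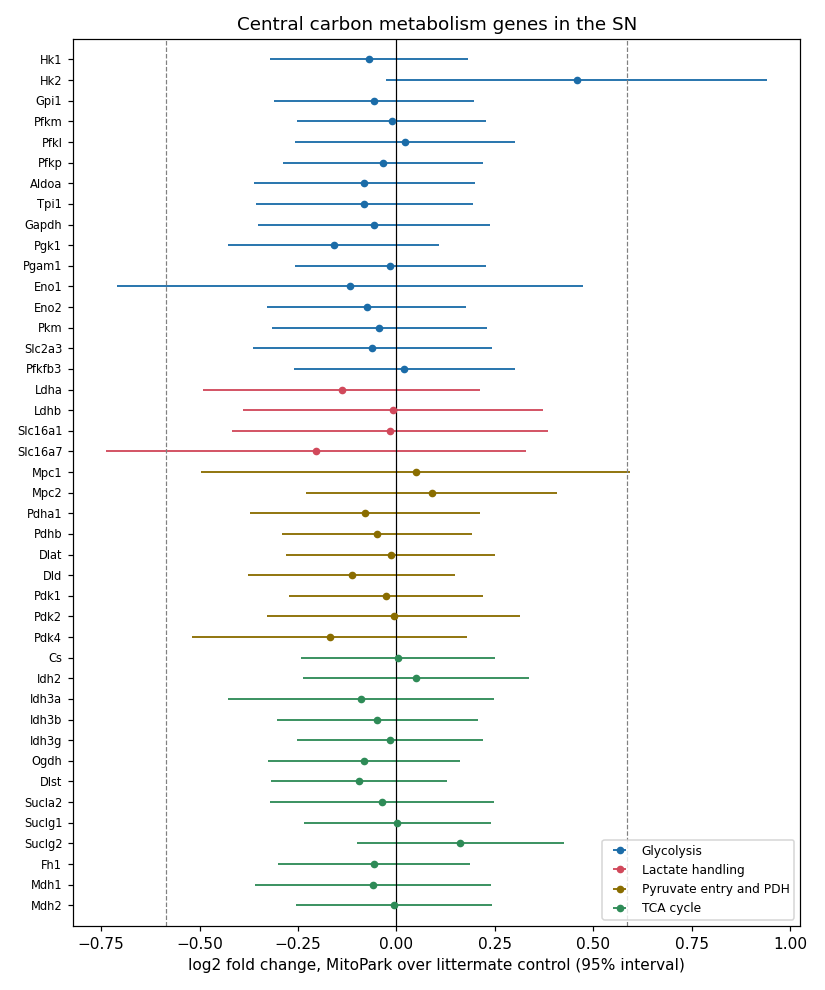
Log2 fold change of each of the 42 genes, MitoPark over littermate control, with its 95% interval from edgeR's quasi-likelihood fit (3 mice a group). Colours mark the 4 gene groups and dashed lines mark a 1.5-fold change. All intervals include 0, and those of Hk2, Eno1, Slc16a7 and Mpc1 cross a dashed line.

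Glucose enters neurons through GLUT3, the product of Slc2a3. Slc2a3 was at 147, 134 and 121 CPM in controls 1, 2 and 3, and MitoParks 1, 2 and 3 had 138, 141 and 106 CPM. Only MitoPark 3 lay below all controls, and the log2 fold change was -0.06 (95% interval -0.37 to 0.24, edgeR unadjusted p = 0.660). Slc2a1 encodes GLUT1, the transporter of brain endothelium and astrocytes, and stands outside the 42 genes. It was at 97.8, 128 and 145 CPM in controls and at 98.5, 107 and 142 CPM in MitoParks, so the groups overlapped here too. The ratio of Slc2a3 to Slc2a1 was 1.51, 1.05 and 0.837 in controls and 1.41, 1.32 and 0.748 in MitoParks, a wide range within each group.

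The largest fitted difference in size among these genes was that of Hk2, a hexokinase gene far below Hk1 in level. Hk1, the main hexokinase of brain, was at 346, 330.1 and 363 CPM in controls and at 342, 351 and 297 CPM in MitoParks (log2 fold change -0.07, 95% interval -0.32 to 0.18). Hk2, an inducible hexokinase that also binds the outer mitochondrial membrane, had 49, 65 and 71 counts in controls 1, 2 and 3 and 83, 67 and 77 counts in MitoParks 1, 2 and 3. In CPM this was 5.46, 6.17 and 6.94 in controls and 10.1, 6.77 and 8.73 in MitoParks. MitoParks 1 and 3 lay above all controls, and MitoPark 2 lay just below littermate control 3. The control mean was 6.19 ± 0.742 CPM (SD, n = 3), and the MitoPark mean 8.54 ± 1.68 CPM (SD, n = 3). On the log2 scale the fitted difference for Hk2 was 0.46 (standard error 0.22, 95% interval -0.03 to 0.94), with edgeR p-values of 0.0611 unadjusted and 0.999 adjusted, and an exact permutation p of 0.2. Without MitoPark 2 it was 0.61 with an unadjusted p of 0.0202, past both thresholds, in a fit where 4.49% of all tested genes had a p below 0.05. In the other 5 fits that each left out 1 mouse it lay between 0.33 and 0.55 and did not pass.

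Hk2 was also set against Hk1 in the same library. The ratio of Hk2 to Hk1 was 0.0158, 0.0187 and 0.0191 in controls and 0.0296, 0.0193 and 0.0294 in MitoParks. The lowest MitoPark was just above the highest control, and this was the only one of 7 pairs of related genes whose ratios did not overlap between groups, where 4.71% of all tested genes had levels that did not overlap. The gap between these neighbours was smaller than the counting error of their 71 and 67 Hk2 counts. Of glial markers, 6 of 6 for astrocytes, 5 of 6 for microglia and 5 of 6 for oligodendrocytes had fitted values above 0. Among the 6 general neuron markers and the 10 dopaminergic markers, 0 did. Markers of the same cell type are not independent of each other, so these counts are a description only. The smallest edgeR unadjusted p of the oligodendrocyte markers was 0.707. Over all tested genes the share above 0 was 48.6%. Gfap, the intermediate filament of reactive astrocytes, was at 193, 171 and 352 CPM in controls and 255, 356 and 549.8 CPM in MitoParks (edgeR unadjusted p = 0.0548). Over 6 astrocyte markers the summed level was 1617 to 2025 CPM in controls and 1788 to 2303 CPM in MitoParks. Over 6 microglia markers it was 224 to 302 CPM and 284 to 297 CPM. The 12 markers of astrocytes and microglia were all detected, none passed the test, and their part in the level of Hk2 was not tested.

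The promoters of Hk2 and Pgk1 are shown because these were the glycolysis genes with the smallest p above and below 0. The 250 bases before the RefSeq start site (build GRCm38.p6) are printed 5′ to 3′ on the strand of the gene. Capitals mark the core letters ACGTG of the hypoxia response element, on either strand, where CACGT is the same core read on the other strand. The letters also lie within the E-box CACGTG, but none of the 4 matches shown here reads CACGTG.
Hk2, chr6:82774455-82774704, minus strand: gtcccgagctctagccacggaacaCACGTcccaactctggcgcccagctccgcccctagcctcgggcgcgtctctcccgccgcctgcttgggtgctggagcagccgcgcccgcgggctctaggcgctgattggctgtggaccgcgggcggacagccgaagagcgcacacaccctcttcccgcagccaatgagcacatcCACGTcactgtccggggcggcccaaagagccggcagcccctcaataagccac
Pgk1, chrX:106186850-106187099, plus strand: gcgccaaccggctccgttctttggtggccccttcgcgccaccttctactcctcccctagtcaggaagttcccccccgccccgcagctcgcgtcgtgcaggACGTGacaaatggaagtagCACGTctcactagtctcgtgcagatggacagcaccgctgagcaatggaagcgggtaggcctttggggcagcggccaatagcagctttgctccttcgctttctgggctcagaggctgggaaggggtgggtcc
Each of these promoters held 2 matches. Of the 42 genes, 39 had a promoter in the RefSeq table, and 14 of these had a match in at least 1 of their promoters, against 18.5% of the 27025 genes in that table. The share was 37.9% of the 58 promoters of these genes and 16.6% of all 32851 promoters of the same length, and Ogdh alone gave 6 of the 22 promoters with a match. By group, a match was found for 7 of 15 glycolysis genes, 2 of 3 lactate genes, 2 of 9 PDH genes and 3 of 12 TCA cycle genes. Hk2 and Pgk1 had fitted log2 fold changes of 0.46 and -0.16, and neither passed the test. The comparison was not matched for the number of promoters per gene or for expression in the SN. A match in these letters is a description of the sequence only.

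Phosphofructokinase commits glucose to glycolysis and is built from a muscle, a liver and a platelet type of subunit. Pfkm, the muscle type, was at 392, 439.7 and 437 CPM in controls and at 421, 430.1 and 408 CPM in MitoParks. Its highest mouse was only 1.12 times its lowest. Pfkp, the platelet type, was at 215, 236 and 223 CPM in controls and at 235, 232 and 192 CPM in MitoParks. Pfkl, the liver type, was at 103, 111 and 96.1 CPM and at 122, 94.8 and 97.8 CPM. The groups overlapped for each subunit, and the log2 fold changes of Pfkm, Pfkp and Pfkl were -0.01, -0.03 and 0.02. Pfkp stood at 0.550, 0.537 and 0.511 of Pfkm in controls and at 0.560, 0.539 and 0.472 in MitoParks. Pfkfb3, whose product makes the activator fructose 2,6-bisphosphate, was at 54.8, 51.3 and 54.6 CPM in controls and at 53.5, 61.9 and 47.5 CPM in MitoParks, with a log2 fold change of 0.02 (95% interval -0.26 to 0.30).

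The middle and lower steps of glycolysis were highly expressed. Per kilobase of the longest annotated transcript, Gapdh had the highest mean level of the 42 genes, at 1521 CPM per kb, followed by Aldoa at 738 and Pkm at 522 CPM per kb. Gapdh, the NADH-forming dehydrogenase often taken as a reference gene, was at 1933, 2349.7 and 2322 CPM in controls and at 2159, 2197 and 1996 CPM in MitoParks. The lowest mouse was littermate control 1 and the highest was littermate control 2, so that MitoParks fell between controls. Its log2 fold change was -0.06 (standard error 0.13, 95% interval -0.35 to 0.24, edgeR unadjusted p = 0.678). Gapdh shares sequence with the listed gene Gm12070, which holds 55.3% of the 150-base windows of its transcript but had only 32 to 64 counts per mouse. Pkm, pyruvate kinase, was at 1156, 1344 and 1366 CPM and at 1270.1, 1281 and 1199.7 CPM, and its splice forms cannot be told apart in counts per gene. Aldoa, an aldolase, was at 1122, 1247 and 1159.6 CPM and at 1236, 1087 and 1013 CPM, with MitoParks 2 and 3 below all controls and MitoPark 1 next to the highest control.

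Pgk1, which forms the first ATP of the payoff phase, had the lowest fitted value in glycolysis. It was at 413, 458 and 481 CPM in controls and at 406, 438 and 366 CPM in MitoParks. MitoParks 1 and 3 lay below all controls and MitoPark 2 lay among them. The log2 fold change was -0.16 (standard error 0.12, 95% interval -0.43 to 0.11, edgeR unadjusted p = 0.211), and fits without any 1 mouse gave -0.22 to -0.09. Gpi1, Tpi1 and Pgam1, an isomerase pair and a mutase, had log2 fold changes of -0.06, -0.08 and -0.02. For Pgam1 the highest mouse was only 1.11 times the lowest, the narrowest range of the 42 genes.

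The widest spread among the 42 genes was found for Eno1, which shares long stretches of sequence with a near-identical copy. Eno1, the ubiquitous enolase, was at 443, 391 and 315 CPM in controls 1, 2 and 3, and MitoParks 1, 2 and 3 had 520.5, 305 and 233 CPM. MitoPark 1 was the highest and MitoPark 3 the lowest of all mice, and the highest was 2.23 times the lowest. Its log2 fold change was -0.12 (standard error 0.26, 95% interval -0.71 to 0.47, edgeR unadjusted p = 0.663). Without MitoPark 1 it was -0.50 with an unadjusted p of 0.0284, in a fit where 1.33% of all tested genes had a p below 0.05. Eno1b, a retrogene copy listed separately, was at 174, 326 and 364 CPM in controls and at 147, 345 and 378 CPM in MitoParks, high in the mice where Eno1 was low.

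The coding sequences of Eno1 and Eno1b are 99.4% identical, with 8 differing bases of 1305, and 48.5% of the 150-base windows of the Eno1 transcript occur exactly in Eno1b. The sum of both was 617, 717 and 678 CPM in controls and 667, 649 and 612 CPM in MitoParks. Eno1 made up between 38.2% and 78.0% of this sum, while the sum itself varied little. The log2 fold change of the sum was -0.06 (standard error 0.11, 95% interval -0.32 to 0.19, edgeR unadjusted p = 0.598). Without MitoPark 1 the sum gave -0.08 and an unadjusted p of 0.568, so the p below 0.05 of Eno1 alone in that fit was not seen for the sum. This summing was chosen after the data were seen. Eno2, the enolase of neurons, was at 828, 909 and 913 CPM in controls and at 864, 857 and 794 CPM in MitoParks. Its ratio to Eno1 alone ranged from 1.66 to 3.40 over the mice, and its ratio to the sum of Eno1 and Eno1b ranged from 1.27 to 1.35.

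**Figure D2:**
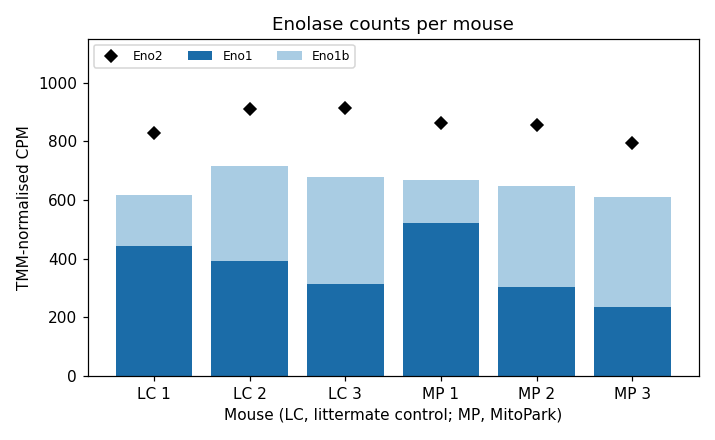
Stacked bars give Eno1 and Eno1b and diamonds give Eno2, in TMM-normalised CPM, for each littermate control (LC) and MitoPark (MP). The share of Eno1 in the bar moved between 38.2% and 78.0%, while the height of the bar stayed between 612 and 717 CPM.

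The genes of lactate handling had the least stable levels of the 4 groups, with a median SD within groups of 0.251 on the log2 scale, against 0.128 over the 42 genes and 0.192 over all tested genes. Ldha encodes the lactate dehydrogenase subunit that favours lactate formation. It was at 203, 202 and 160.0 CPM in controls and at 203, 173 and 138 CPM in MitoParks, with littermate control 3 and MitoPark 3 lowest in their groups. Ldhb, the subunit that favours lactate use, was at 315, 426 and 496 CPM in controls and at 381, 462 and 387 CPM in MitoParks, and littermate control 1 and littermate control 3 were the lowest and the highest of all mice. The ratio of Ldha to Ldhb was 0.645, 0.475 and 0.323 in controls and 0.532, 0.374 and 0.357 in MitoParks. All 3 MitoParks fell within the range of the controls. Log2 fold changes were -0.14 for Ldha (95% interval -0.49 to 0.21) and -0.01 for Ldhb (95% interval -0.39 to 0.37). Ldha ranged from -0.27 without MitoPark 1 to -0.0058 without MitoPark 3. Without littermate control 3, Ldha was -0.24 and Ldhb was 0.15.

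Lactate crosses membranes through monocarboxylate transporters. Slc16a1 encodes MCT1, found in endothelium and oligodendrocytes, and was at 50.3, 51.6 and 72.7 CPM in controls and at 46.2, 63.9 and 62.6 CPM in MitoParks. Littermate control 3 was the highest mouse and MitoPark 1 the lowest, and the log2 fold change was -0.02 (95% interval -0.42 to 0.39), or 0.18 without littermate control 3. Slc16a7 encodes MCT2, the transporter of neurons, and had the lowest level per length of the 42 genes. It was at 4.79, 3.89 and 5.86 CPM in controls and at 4.39, 4.04 and 4.20 CPM in MitoParks, from only 36 to 60 counts per mouse. Its log2 fold change of -0.20 (standard error 0.24, 95% interval -0.74 to 0.33, edgeR unadjusted p = 0.410) was the lowest of the 42 with all mice, and its interval reached past 1.5-fold below 0. It was -0.04 without littermate control 3 and -0.34 without littermate control 2, so its place among the genes rested on single mice. The ratio of Slc16a1 to Slc16a7 was 10.5, 13.2 and 12.4 in controls and 10.5, 15.8 and 14.9 in MitoParks.

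**Figure D3:**
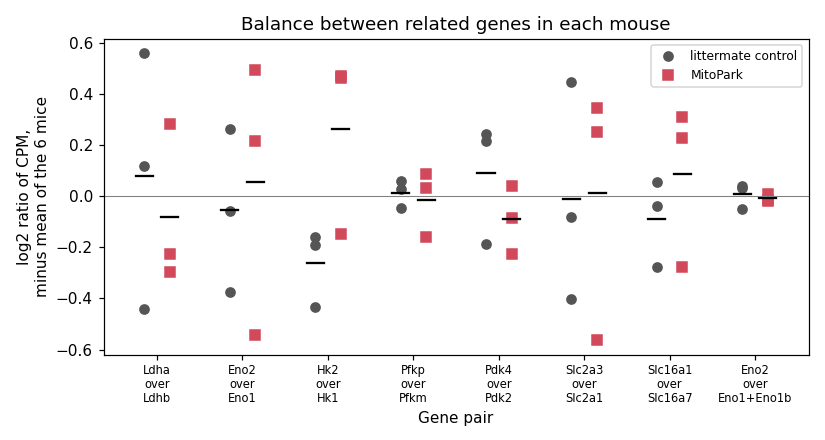
Log2 ratio of CPM between related genes in each mouse, with the mean of the 6 mice set to 0. Circles are littermate controls, squares are MitoParks and bars are group means. Only Hk2 over Hk1 had groups that did not overlap, while Eno2 over the sum of Eno1 and Eno1b varied least.

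Pyruvate enters mitochondria through a carrier of Mpc1 and Mpc2. Mpc1 was at 67.6, 106 and 134 CPM in controls 1, 2 and 3, and MitoParks 1, 2 and 3 had 80.1, 111 and 128 CPM. Mouse 1 was the lowest of each group, and the highest mouse was 1.99 times the lowest. The log2 fold change of Mpc1 was 0.05 with a standard error of 0.24 (95% interval -0.50 to 0.59, edgeR unadjusted p = 0.843), and it was 0.29 without littermate control 3. Mpc2 was at 40.5, 57.2 and 49.5 CPM in controls and at 50.2, 50.4 and 56.1 CPM in MitoParks, with littermate control 1 lowest and the MitoParks close together. Oligodendrocyte markers moved in the same order as Mpc1 over the mice. Their summed level over 6 genes was 6697, 9454 and 17757 CPM in controls and 9203, 11941 and 15111 CPM in MitoParks, with none of the 6 at 0. Their part in the spread of Mpc1 was not tested.

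The PDH complex joins 3 catalytic units. For the first, Pdha1 was at 240.3, 278 and 302 CPM in controls and at 241, 295 and 242 CPM in MitoParks, and Pdhb at 110.1, 132 and 133 CPM and at 123, 122 and 117 CPM. Dlat, the acetyltransferase at the core, was at 126, 126 and 141 CPM in controls and at 112, 138 and 139 CPM in MitoParks. Dld, the dehydrogenase shared with the 2-oxoglutarate dehydrogenase complex, was at 157, 160.2 and 172 CPM in controls and at 139, 173 and 139.9 CPM in MitoParks. MitoParks 1 and 3 lay below all controls for Dld and MitoPark 2 lay above them, and the groups overlapped for all 4 subunits. The log2 fold changes of Pdha1, Pdhb, Dlat and Dld were -0.08, -0.05, -0.01 and -0.11, with edgeR p-values between 0.355 and 0.904 before adjustment.

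PDH kinases switch the complex off. Pdk1, a target of hypoxia signalling, was at 66.5, 69.4 and 59.6 CPM in controls and at 68.3, 62.5 and 61.2 CPM in MitoParks (log2 fold change -0.03, 95% interval -0.27 to 0.22). Pdk2, the widely expressed kinase, was at 77.1, 94.3 and 113 CPM in controls and at 88.7, 92.5 and 102 CPM in MitoParks, with all MitoParks inside the range of the controls. Its log2 value was -0.01 with all mice and 0.14 without littermate control 3. Pdk4, which responds to fasting and fatty acids, was at 14.4, 18.0 and 15.9 CPM in controls and at 12.2, 15.3 and 15.4 CPM in MitoParks. MitoPark 1 was below all controls, and MitoParks 2 and 3 lay between the controls. Its log2 fold change of -0.17 (standard error 0.16, 95% interval -0.52 to 0.18, edgeR unadjusted p = 0.302) was the largest in size in this group with all mice. It was -0.06 without MitoPark 1 and -0.08 without littermate control 2. The ratio of Pdk4 to Pdk2 was 0.186, 0.190 and 0.141 in controls and 0.137, 0.165 and 0.152 in MitoParks.

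The TCA cycle genes had the tightest levels, with a median SD within groups of 0.104 on the log2 scale, and the interval of the fold change lay within 1.5-fold for 13 of 13. Fitted values ran from -0.09 for Dlst to 0.16 for Suclg2. Cs, citrate synthase, takes in acetyl-CoA. It was at 259.6, 265 and 309 CPM in controls and at 274, 289 and 273 CPM in MitoParks, with means of 278 ± 27.1 and 279 ± 8.86 CPM (SD, n = 3 each). Its log2 fold change was 0.0042 (95% interval -0.24 to 0.25).

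The NAD-dependent isocitrate dehydrogenase is made of the subunits of Idh3a, Idh3b and Idh3g. Idh3a, the catalytic one, was at 218, 255 and 273 CPM in controls and at 202, 284 and 214 CPM in MitoParks, with MitoPark 2 above all controls and MitoParks 1 and 3 below them. Idh3b was at 195, 218 and 236 CPM in controls and at 207, 226 and 194 CPM in MitoParks. Idh3g was at 96.2, 113 and 108 CPM in controls and at 106, 109.7 and 98.6 CPM in MitoParks. The 3 subunits had log2 fold changes of -0.09, -0.05 and -0.02, each with an interval that included 0. Idh2, the NADP-dependent mitochondrial enzyme, was at 34.9, 43.3 and 37.9 CPM and at 43.3, 37.1 and 39.9 CPM, with a log2 fold change of 0.05.

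Ogdh and Dlst encode the 2-oxoglutarate dehydrogenase and its succinyltransferase. Ogdh was at 394, 364 and 399 CPM in controls and at 367, 388 and 339 CPM in MitoParks, and Dlst at 118, 127 and 136 CPM and at 114, 119 and 123 CPM. MitoPark 3 was the lowest mouse for Ogdh and MitoPark 1 for Dlst, and other MitoParks fell among the controls. Log2 fold changes were -0.08 for Ogdh (unadjusted p = 0.470) and -0.09 for Dlst (unadjusted p = 0.366), both by edgeR.

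Succinyl-CoA synthetase pairs the common subunit of Suclg1 with an ATP-forming partner, from Sucla2, or a GTP-forming one, from Suclg2. Suclg2 had the smallest p of the TCA cycle genes. It was at 25.3, 28.2 and 29.7 CPM in controls and at 29.6, 32.4 and 31.2 CPM in MitoParks, so MitoParks 2 and 3 lay above all controls and MitoPark 1 just below littermate control 3. Its log2 fold change was 0.16 (standard error 0.12, 95% interval -0.10 to 0.43, edgeR p-values of 0.197 unadjusted and 0.999 adjusted), and fits without any 1 mouse gave 0.11 to 0.22. Sucla2 was at 180.3, 211 and 219 CPM in controls and at 178, 226 and 191 CPM in MitoParks, and Suclg1 at 97.7, 117 and 116 CPM and at 108, 112 and 111 CPM. The values for these partners were -0.04 and 0.0018 on the log2 scale.

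Fumarase and malate dehydrogenase close the cycle. Fh1 was at 70.4, 80.4 and 74.6 CPM in controls and at 69.5, 78.6 and 68.5 CPM in MitoParks (log2 fold change -0.06). Mdh1, the cytosolic dehydrogenase of the malate-aspartate shuttle, had the highest level per length of the TCA group, at 325 CPM per kb. It was at 625, 734 and 756 CPM in controls and at 672, 756 and 599 CPM in MitoParks, with MitoPark 3 the lowest mouse and MitoPark 2 level with littermate control 3 at the top. Mdh2, the mitochondrial enzyme, was at 223, 265 and 247 CPM and at 262, 237 and 233 CPM, and its log2 fold change was -0.01 (95% interval -0.25 to 0.24).

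The levels of the 42 genes varied from mouse to mouse within both groups. Littermate control 1 was the lowest of the 6 mice for 19 of the 42 genes and MitoPark 3 for 13, while littermate control 3 was the highest for 16 and littermate control 2 for 14. Summed over the 42 genes, CPM were 12628, 14247 and 14310.2 in controls and 13572, 13688 and 12347 in MitoParks, so the lowest and the highest mouse belonged to different groups but the others were interleaved. Over the 13 TCA cycle genes, the median deviation from the mean of the 6 mice was -0.13, 0.09 and 0.09 on the log2 scale in the controls and -0.03, 0.06 and -0.07 in the MitoParks. Over the 9 genes of pyruvate entry and PDH it was -0.14, 0.07 and 0.12 in controls and -0.14, 0.02 and 0.03 in MitoParks. Glycolysis was lowest in MitoPark 3, with deviations of -0.05, 0.09 and 0.06 in controls and 0.02, 0.01 and -0.12 in MitoParks. The median of lactate handling stood out in littermate control 3 alone, with -0.05, -0.04 and 0.32 in controls and -0.06, 0.06 and -0.08 in MitoParks. In that mouse Ldhb, Slc16a1 and Slc16a7 were the highest of the 6, while Ldha was the lowest of the controls. The median log2 fold change of the 4 lactate genes was -0.08 with all mice and 0.05 without this control. Over all tested genes the same median lay between 0.0007 and 0.0097 in every mouse.

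General neuron markers were measured beside these levels. The summed level of 6 neuron markers was 3697, 4193 and 4935 CPM in controls and 3531, 4378 and 3502 CPM in MitoParks. MitoPark 3 was the lowest mouse, followed by MitoPark 1 and littermate control 1, and littermate control 3 was the highest. None of the 6 markers was at 0 in any mouse, and their part in the levels of the 42 genes was not tested. The 10 dopaminergic markers together stood at 467, 558 and 1535 CPM in controls and at 310.0, 570.2 and 560.1 CPM in MitoParks.

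**Figure D4:**
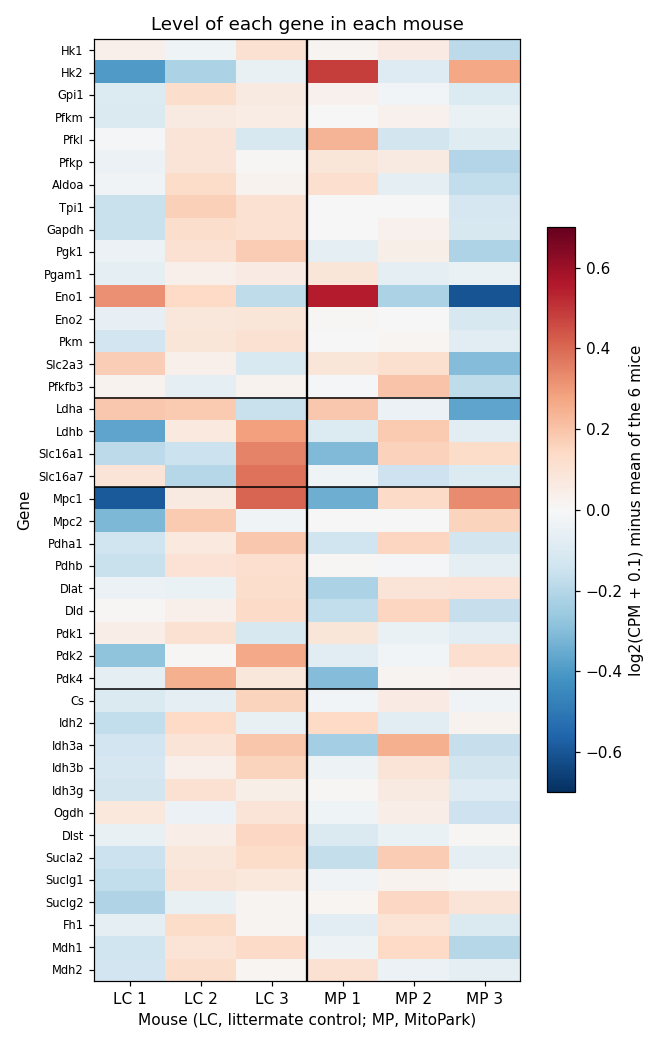
Level of each of the 42 genes in each littermate control (LC) and MitoPark (MP), as log2(CPM + 0.1) minus the mean of the 6 mice. Horizontal lines divide glycolysis, lactate handling, pyruvate entry and PDH, and the TCA cycle. LC 1 was the lowest mouse for 19 genes and LC 3 the highest for 16, and Hk2, Eno1 and Mpc1 show the widest colour range.

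**Figure D5:**
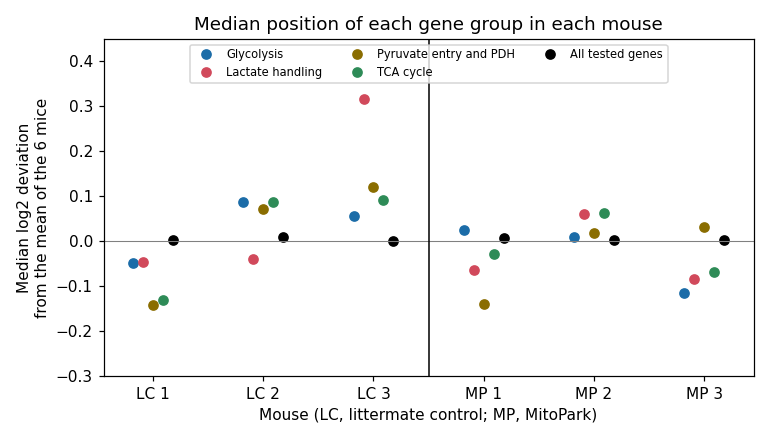
Median deviation of each gene group from the mean of the 6 mice, on the log2 scale, in each littermate control (LC) and MitoPark (MP). Black points are the median of all tested genes, which stayed within 0.0097 of 0, while the lactate group reached 0.32 in LC 3 and the PDH group was at -0.14 in LC 1 and MP 1.

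Further genes of these pathways, listed apart from the 42, gave no call either. Of 54 such genes, 53 were found in the table and 41 were tested. Of these, 0 passed an unadjusted p of 0.05 in edgeR, where 1.11% of all tested genes did. At that share a list of 41 genes would also hold few or none. Their groups overlapped in all 41, while 4.71% of all tested genes had groups that did not. Values were above 0 for 11 and below 0 for 30, where 51.4% of all tested genes were below 0. Their median log2 fold change was -0.06. Whether this split held under other scalings or without single mice was not examined. By pathway, 6 of 16 further glycolysis genes, 1 of 4 lactate genes, 1 of 6 PDH genes and 3 of 15 TCA cycle genes had values above 0.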

How the data were processed

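The authors mapped single-end reads of stranded libraries to UCSC transcripts with Bowtie2 2.1.0 and estimated reads per gene with RSEM 1.2.15, and the deposited table holds these expected counts for 24054 gene symbols, unscaled and not pooled. The build of this alignment is not given in the methods, and the processing notes list hg38 for these mouse samples. Between 11.9% and 14.1% of the values were not whole, so all were rounded. Reads shared by near-identical genes, such as Eno1 and Eno1b, are divided by the model. The part of this division in the levels of Eno1 was not tested. Column names starting with Treat were taken as the PD samples of the labels, and 0 columns were left unmapped.

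Genes with a mean above 1 CPM in at least 1 group (14568) were fitted with edgeR 4.0.16 (TMM factors, quasi-likelihood F test, R 4.3.3), adjusted by Benjamini-Hochberg over all of them. A gene was called at an unadjusted p below 0.05, with or without a fold change above 1.5, and 95% intervals come from the same fit. Exact permutation tests were two-sided on log2(CPM + 0.1). The edgeR p-values set the difference between groups against the spread between these mice, with the variance of each gene partly drawn from all tested genes. Within groups, each pair of libraries differed by more than sampling noise, so each mouse counted as 1 replicate.

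The 42 genes, the further genes and the marker lists were chosen with earlier results of these data known. Every member was described by group, and values in every mouse were given for the smallest p, the largest change and the highest level per length in each group, for related pairs of genes, and for the other members the text describes. Levels per kb used the longest GENCODE M21 transcript. Promoters came from RefSeq (GRCm38.p6). Exactly shared windows of 150 bases were searched in GENCODE M21 transcripts. The coding sequences of Eno1 and Eno1b were taken as the longest open reading frame. Alternatives were DESeq2 1.42.0, limma-voom (limma 3.58.1), edgeR's exact test, RLE factors or total counts, a laxer and a stricter filter, counts left unrounded, a term for the replicate number, and fits without 1 mouse at a time.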

Additional observations from a re-analysis of the deposited data

How the results depend on the processing

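Over all tested genes, 84 were called (unadjusted p below 0.05 and fold change above 1.5), against 176 with no filter, 31 with a mean CPM above 5, which dropped Slc16a7, and 62 (without MitoPark 3) to 219 (without littermate control 3) with 1 mouse left out. Of the 42 genes, 0 to 1 had a p below 0.05 when a mouse was left out, Eno1 without MitoPark 1 and Hk2 without MitoPark 2, and Hk2 was also past 1.5-fold there, so that 0 to 1 were called. No other alternative called any of them. With the replicate number as a block, 126 genes were called, 0 of them among the 42. An adjusted p below 0.05 was reached by 1 gene with this block and by 1 gene with edgeR's exact test, in neither case among the 42. An unadjusted edgeR p below 0.05 was reached by 323 genes with this block and by 161 genes without it. For each number, the control and the MitoPark were compared by how far each gene lay from its group mean. The correlation was 0.307 for number 1, -0.074 for number 2 and 0.244 for number 3. Whether the numbers pair the mice was not tested.

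Of 631 single-gene values under the alternatives, 64 had the opposite sign to the value reported, 52 of them with a mouse left out, and 17 of the 42 genes never did. None of the reported values that turned was above 0.118 in size on the log2 scale. With total counts, the log2 fold change was 0.0001 for Dlat, 0.0086 for Mdh2, 0.0104 for Pdk2, 0.0028 for Pfkm, 0.0008 for Slc16a1 and 0.0077 for Ldhb. With limma-voom it was 0.0113 for Ldhb and 0.008 for Pdk2, with the replicate block 0.0112 for Ldhb and 0.0066 for Pdk2, and with a mean CPM above 5 it was 0.0012 for Mdh2 and 0.0018 for Pdk2. With a mouse left out, log2 fold changes ran for Cs from -0.0384 to 0.0876, Dlat from -0.0682 to 0.092, Eno1 from -0.4995 to 0.1071, Hk1 from -0.1091 to 0.0015, Idh2 from -0.0145 to 0.1392, Idh3a from -0.2477 to 0.0126, Idh3b from -0.1122 to 0.02, Idh3g from -0.0743 to 0.0368, Ldhb from -0.1643 to 0.1468. In the same fits they ran for Mdh1 from -0.1416 to 0.0185, Mdh2 from -0.0654 to 0.0568, Mpc1 from -0.1708 to 0.2925, Mpc2 from -0.0233 to 0.2156, Pdk1 from -0.0871 to 0.0218, Pdk2 from -0.1294 to 0.1382, Pfkfb3 from -0.0785 to 0.1074, Pfkl from -0.092 to 0.098. They also ran for Pfkm from -0.0588 to 0.0182, Pfkp from -0.0758 to 0.0531, Pgam1 from -0.0523 to 0.0189, Pkm from -0.1113 to 0.0007, Slc16a1 from -0.104 to 0.1772, Slc2a3 from -0.1291 to 0.06, Sucla2 from -0.1335 to 0.045, and Suclg1 from -0.0721 to 0.0478. For the 17 genes that never changed sign, the ranges were Aldoa from -0.1542 to -0.0188, Dld from -0.2205 to -0.0481, Dlst from -0.1361 to -0.0428, Eno2 from -0.1154 to -0.0382, Fh1 from -0.1156 to -0.0054, Gapdh from -0.137 to -0.0062, Gpi1 from -0.1131 to -0.0098, Hk2 from 0.3296 to 0.6099, Ldha from -0.2677 to -0.0058, Ogdh from -0.1214 to -0.0324, Pdha1 from -0.1735 to -0.0012, Pdhb from -0.1264 to -0.0008, Pdk4 from -0.2379 to -0.0592, Pgk1 from -0.2162 to -0.0946, Slc16a7 from -0.3416 to -0.042, Suclg2 from 0.1059 to 0.2152, and Tpi1 from -0.1691 to -0.0175. Group medians ranged from -0.08 to 0.0025 for glycolysis, -0.13 to 0.05 for lactate handling, -0.13 to -0.0008 for PDH and -0.09 to 0.0017 for the TCA cycle. The cause of these turns was not tested. At this depth Hk2 and Slc16a7 had between 36 and 83 counts per mouse.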
